A study of Ipomoea batatas with 9 samples.

Results

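Heat stress transcription factors (HSFs) were followed in storage roots of sweetpotato (Ipomoea batatas, cultivar Xushu 18) by RNA sequencing. They are the 53 contigs, of 110110 in the deposited table, whose gene symbol begins with HSFA, HSFB or HSFC. The 53 contigs carry 19 symbols: 32 contigs with 13 class A symbols, 20 contigs with 5 class B symbols, and 1 class C contig. The study compared roots stored at 4 °C, roots stored at 14 °C, both at a relative humidity of 85%, and roots that were not stored (unstored roots below), to find genes that respond to low temperature in store. There were 3 libraries per group, and 7 roots were pooled for every library. Tissue was taken every other week in store, but the labels do not give the time in store of a library, the age of the roots or whether pools shared a harvest, so the p-values measure the spread between these pools.

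HSFs are DNA-binding proteins that recognise short repeats, called heat shock elements, in the promoters of chaperone genes. Class A members carry an activation motif and switch their targets on, whereas class B members lack it and several of them act as repressors in Arabidopsis. In unstressed cells the class A1 factors are held inactive by the chaperones HSP70 and HSP90, and misfolded protein releases them. Plants keep many HSF genes, and sweetpotato, a polyploid, may carry several near-identical copies of each, which can share reads and can also be split over several contigs.

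The contigs ran from 226 to 2163 bases, with a median of 810 bases. Class A contigs had a median of 910 bases and class B contigs of 453.5 bases, so many of them are partial transcripts. None of the 53 had a product description in the table. All 53 carried the Gene Ontology terms for sequence-specific DNA binding and for the nucleus. Response to heat was annotated on 6 contigs, all of class A. Negative regulation of transcription was annotated on 7 contigs and asymmetric cell division on 5, all of class B, while response to chitin was annotated on 23 contigs of both classes.

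Libraries held 67.6 to 95.4 M estimated counts (M, 1000000), and 2 libraries of the same group had a Pearson r of 0.958 to 0.985 across 47349 contigs. The storage root markers differed strongly between groups. The 9 sporamin contigs summed to 23.6 to 232 counts per 1000000 (CPM) at 4 °C, 26000 to 34900 CPM in the 14 °C roots and 69600 to 109000 CPM in unstored roots. The 17 BMY1 (beta-amylase) contigs summed to 6.74 to 28.3, 3290 to 3820 and 8280 to 9890 CPM in the same order, and 5 of them had no count at 4 °C. The 34 AGPS1 (ADP-glucose pyrophosphorylase) contigs summed to 65.1 to 130, 25400 to 32900 and 8580 to 12100 CPM, with 3 of them at 0 at 4 °C. The 106 core histone contigs, a sign of dividing cells, summed to 2700 to 3080, 843 to 1150 and 1040 to 1640 CPM, with 2 at 0 in every group, and the 116 light-harvesting and photosystem contigs to 174 to 203, 576 to 596 and 1670 to 2440 CPM, with none at 0. Their part in the HSF results was not tested. In bulk tissue, fewer cells of a type and less RNA per cell cannot be told apart.

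Among the 53 contigs, the make-up of the HSF transcripts differed at 4 °C from both other groups. Levels between contigs are given here as transcripts per 1000000 (TPM), the deposited unit that accounts for length. The shares leave out 13 contigs with the symbols HSF30, HSF8 and HSF24, described at the end. Those summed to 224 ± 13.0 TPM in the 4 °C roots, 213 ± 7.98 TPM at 14 °C and 131 ± 8.62 TPM in unstored roots. Class B contigs made up 45.6 ± 0.448% of the summed TPM of the 53 contigs at 4 °C, 28.4 ± 1.52% in the 14 °C roots and 28.0 ± 0.193% in unstored roots (SD, n = 3 each). The share of class B did not overlap between 4 °C and either other group, and it overlapped between 14 °C and unstored roots. Within the 53 contigs, the class B share was higher at 4 °C through 1 contig. Class shares with the 13 left-out contigs placed in a class were not computed, so this holds for the 53 contigs only. HSFB3 alone held 21.3 ± 1.36% in the 4 °C roots, 2.24 ± 0.218% in the 14 °C roots and 2.06 ± 0.194% in unstored roots. The 19 other class B contigs together held 24.3 ± 0.944% in the 4 °C roots, 26.2 ± 1.33% in the 14 °C roots and 25.9 ± 0.38% in unstored roots, so without HSFB3 the mean share was lowest at 4 °C, with libraries that overlapped those at 14 °C and lay below those of unstored roots. The 3 HSFA2 contigs moved the other way, with 4.59 ± 0.141%, 18.0 ± 1.5% and 19.3 ± 1.94% of the family. The 10 HSFB2B contigs held a like share in each group, 21.5 ± 0.926%, 22.2 ± 1.25% and 20.6 ± 0.435%.

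**Figure D1:**
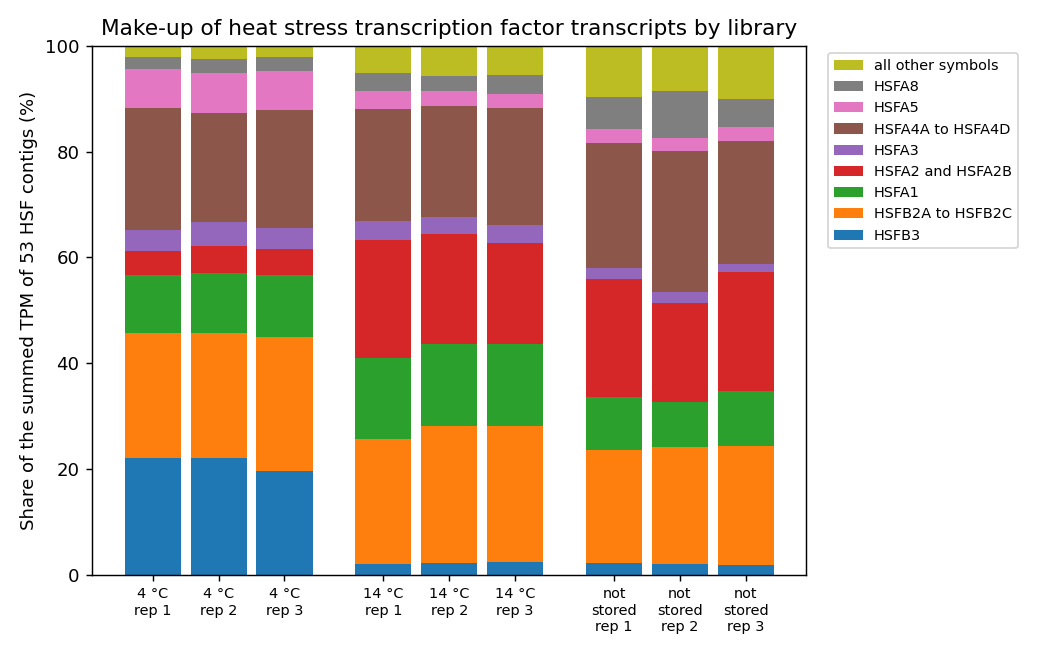
Share of the summed TPM of the 53 HSF contigs (vertical axis, percent) by symbol group in each of the 9 libraries (bars). HSFB3 takes 19.7 to 22.1% of each 4 °C bar and 1.86 to 2.47% of each other bar, while HSFA2 with HSFA2B takes 4.59 to 5.09% at 4 °C and 18.8 to 22.4% elsewhere.

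The summed level of the 53 contigs, in CPM scaled by library size with the TMM method, was 452 ± 20.5 in the 4 °C roots, 405 ± 12.7 at 14 °C and 396 ± 31.2 in unstored roots (SD, n = 3 each). In TPM it was 307 ± 7.99, 323 ± 6.67 and 232 ± 18.1 in the same order, so the order of the groups depended on the scale. Class B summed to 210 ± 12.9 CPM at 4 °C, against 105 ± 7.29 CPM in the 14 °C roots and 103 ± 6.47 CPM in unstored roots. Without HSFB3 it summed to 78.4 ± 1.8 CPM in the 4 °C roots, 91.5 ± 5.68 CPM in the 14 °C roots and 91.5 ± 5.34 CPM in unstored roots, lower at 4 °C in every library, while in TPM the same contigs summed to 74.6 ± 4.02, 84.5 ± 3.43 and 60.1 ± 5.34. Class A summed to 238 ± 6.78 CPM at 4 °C, against 297 ± 8.92 CPM in the 14 °C roots and 285 ± 25 CPM in unstored roots. Class A was thus lowest at 4 °C in CPM, but on the TPM scale it was 163 ± 5.63 in the 4 °C roots, 228 ± 9.25 at 14 °C and 162 ± 11.8 in unstored roots, so its place beside unstored roots depended on the scale.

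Each contig was tested with edgeR's quasi-likelihood test on all 94802 contigs that passed a filter on low counts, and a contig is called changed below where its Benjamini-Hochberg adjusted p is under 0.05. Of the 53 HSF contigs 51 were tested. The 2 others, HSFB2C comp7762_c10 and HSFB4 comp50885_c1, had too few counts.

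In roots at 4 °C against roots at 14 °C, HSF contigs fell more often than they rose. Of 51 tested contigs, 11 (21.6%) were higher and 21 (41.2%) lower at 4 °C, beside 23.8% higher and 24.0% lower of all contigs tested. In either direction this was 62.7% of the HSF contigs and 47.8% of all. The median log2 fold change was -0.29 over the HSF contigs and -0.08 over all tested contigs. Class A counted 8 higher and 15 lower of 32, and class B 3 higher and 6 lower of 18. By symbol, the lower contigs were 4 each of HSFA4A and HSFB4, 3 each of HSFA2, HSFA2B and HSFA6b, 2 of HSFB2B, and 1 each of HSFA1 and HSFA7A. The higher ones were 2 each of HSFA4A, HSFA5 and HSFB2B, and 1 each of HSFA3, HSFA4B, HSFA4C, HSFA4D and HSFB3. Contigs of 1 symbol may be pieces or copies of 1 gene, so the counts are not counts of genes. All 3 libraries of one group lay above those of the other for 14 contigs in the higher direction and 24 in the lower, beside 29.5% and 30.8% of all contigs, or 60.4% in either direction. A change of at least 2-fold was reached by 9 of the higher and 18 of the lower HSF contigs, beside 16.4% and 18.2% of all contigs. Apart from the demand for a change of at least 2-fold, 8 of the higher and 17 of the lower calls held under every alternative in which the contig was tested. A stricter filter on low counts tested 9 of the higher and 14 of the lower contigs, and 7 and 12 of the calls held with that filter included. Counted in the same way, where tested, 14 of 17 higher and 17 of 23 lower calls held at 4 °C against unstored roots, and 9 of 15 higher and 7 of 10 lower calls at 14 °C against unstored roots.

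**Figure D2:**
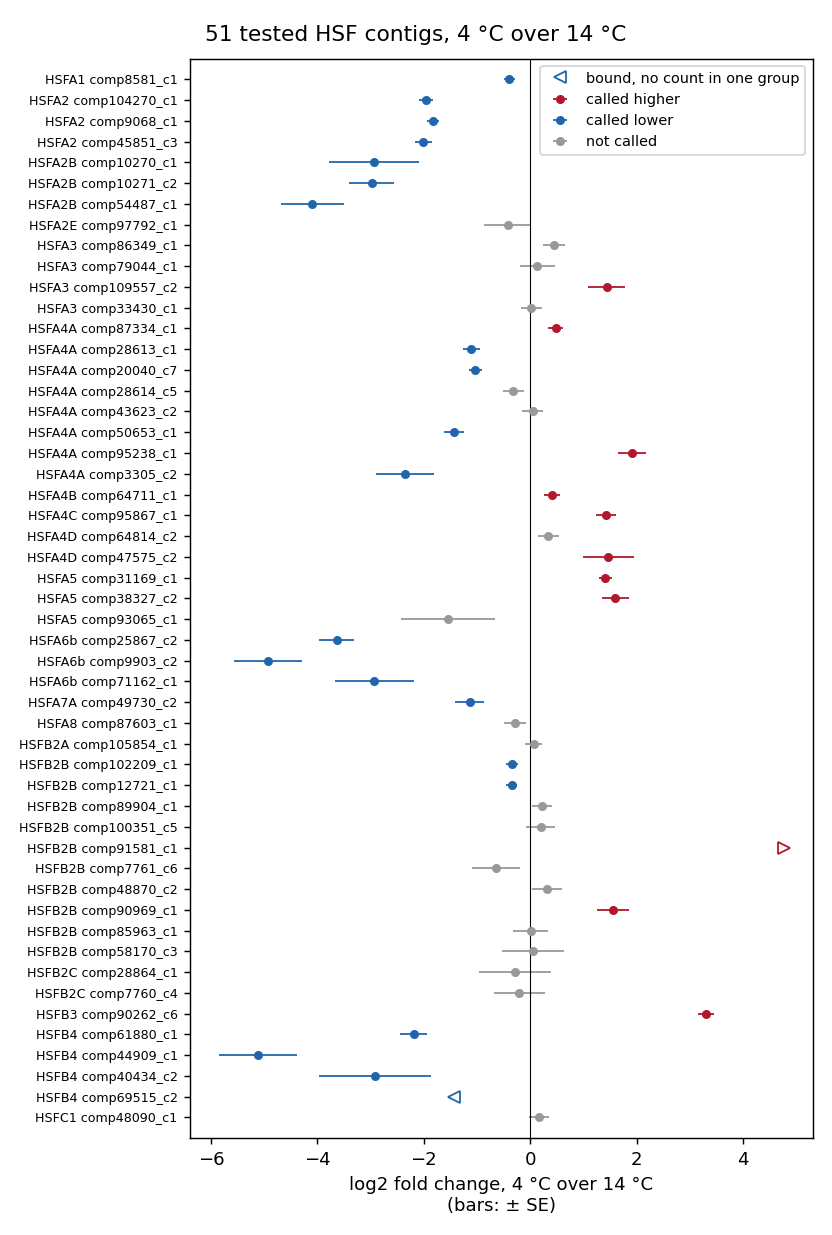
Log2 fold change of 4 °C over 14 °C (horizontal axis) for the 51 tested HSF contigs, with bars of ± 1 standard error. Colours give the call, and open triangles mark the lower bound of the change of contigs with no count in one group. HSFA2, HSFA2B, HSFA6b and HSFB4 lie left of zero, and HSFB3 and the called HSFA5 contigs lie right of it.

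Of the 3 comparisons, that of 4 °C with unstored roots had the most HSF calls. At 4 °C 17 contigs (33.3%) were higher and 23 (45.1%) lower than in unstored roots, beside 26.0% and 26.6% of all contigs, with a median of -0.14 against -0.02 over all contigs. In either direction this was 78.4% of the HSF contigs and 52.5% of all. The groups did not overlap for 19 contigs in the higher and 23 in the lower direction, beside 30.1% and 30% of all contigs, or 60.0% in either. At least 2-fold were 16 of the higher and 16 of the lower contigs, beside 18.6% and 20.8% of all. Class A counted 8 higher and 16 lower of 32, and class B 9 higher and 6 lower of 18. At 14 °C 15 contigs (29.4%) were higher and 10 (19.6%) lower than in unstored roots, beside 15.1% and 15.7% of all contigs, with a median of 0.36 against 0.02. In either direction this was 49.0% of the HSF contigs and 30.9% of all. The groups did not overlap for 20 contigs in the higher and 12 in the lower direction, beside 22.6% and 22.0% of all contigs, or 44.6% in either. At least 2-fold were 8 of the higher and 7 of the lower contigs, beside 9.15% and 9.95% of all. Class A counted 8 higher and 6 lower, and class B 7 higher and 3 lower. With library totals alone as the scaling, the median of all contigs shifted by 0.25 in the 14 °C comparison, and 21 HSF contigs were higher and 8 lower, 72.4% of the calls higher against 60.0% under TMM. For all contigs that share was 67.9% against 49.0%. Both comparisons use the same unstored roots.

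**Figure D3:**
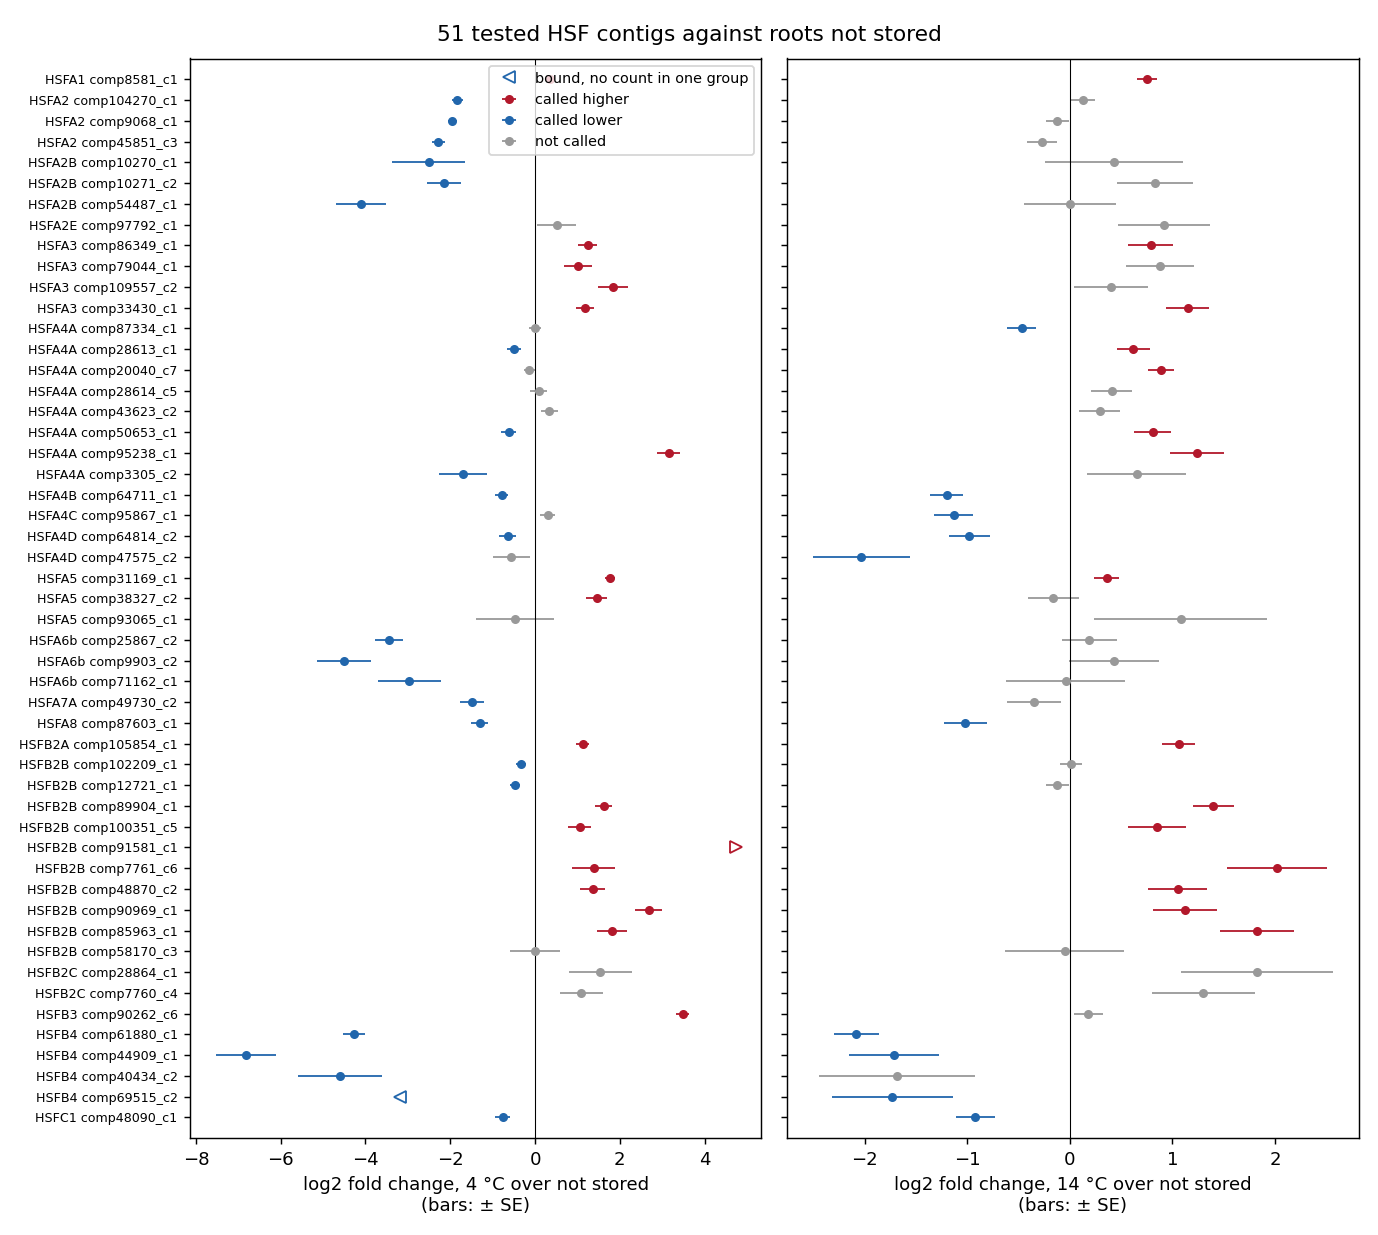
Log2 fold change against unstored roots for the 51 tested HSF contigs at 4 °C (left panel) and at 14 °C (right panel, with its own scale), with bars of ± 1 standard error, colours for the call and open triangles for bounds. HSFA2, HSFA2B and HSFA6b are called lower in the left panel and not called in the right one, and HSFB4 lies left of zero in both.

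HSFA1 encodes the class of factor that acts as the master regulator of the heat response in tomato and Arabidopsis. The single contig with the symbol HSFA1, comp8581_c1, had 65.1, 67.5 and 64.3 CPM in the 4 °C roots, 85.0, 84.1 and 89.2 CPM in the 14 °C roots and 52.5, 48.8 and 52.2 CPM in unstored roots. The 3 groups did not overlap, and the roots at 14 °C stood highest. HSFA1 rose at 14 °C against unstored roots (log2 fold change 0.75 ± 0.10 (SE), adjusted p = 0.00017), and at 4 °C it was lower than at 14 °C (-0.39 ± 0.10, adjusted p = 0.0056). It was also higher at 4 °C than in unstored roots (0.36 ± 0.10, adjusted p = 0.0084), and that call was lost without the second library of unstored roots (adjusted p = 0.053). With 49.9 ± 0.844 TPM at 14 °C it was among the most abundant members there.

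HSFA2 is the heat-induced factor that prolongs the response and gives acquired thermotolerance in Arabidopsis. All 3 contigs with the symbol HSFA2 fell at 4 °C and none was called between 14 °C and unstored roots. The longest, comp104270_c1, had 9.36, 11.3 and 9.63 CPM in the 4 °C roots, 42.9, 38.3 and 36.8 CPM in the 14 °C roots and 38.6, 35.1 and 33.9 CPM in unstored roots. The 4 °C libraries lay far below both other groups, which overlapped. It was lower at 4 °C by -1.96 ± 0.13 (log2, SE) against 14 °C (adjusted p = 1.4e-07) and by -1.83 ± 0.12 against unstored roots (adjusted p = 1.8e-07). For comp9068_c1 these changes were -1.83 ± 0.11 and -1.95 ± 0.11, and for comp45851_c3 -2.01 ± 0.16 and -2.28 ± 0.16. Between 14 °C and unstored roots the 3 contigs gave 0.13, -0.12 and -0.27, with adjusted p of 0.43, 0.41 and 0.18. With library totals alone comp104270_c1 was called higher at 14 °C (0.38, adjusted p = 0.02).

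The 3 HSFA2B contigs, which bear a related symbol, were all lower at 4 °C than at 14 °C. HSFA2B comp10271_c2 had 0.199, 0.735 and 0.241 CPM in the 4 °C roots, 3.26, 3.25 and 2.84 CPM in the 14 °C roots and 1.31, 1.85 and 2.10 CPM in unstored roots. No library at 4 °C reached the lowest of the others. The change was -2.98 ± 0.42 against 14 °C (adjusted p = 0.0001) and -2.15 ± 0.41 against unstored roots (adjusted p = 0.00091), and it grew to -3.78 and -2.99 without the second 4 °C library, the highest of its group. HSFA2B comp54487_c1 had 0.0710, 0 and 0.127 CPM in the 4 °C roots, 1.33, 0.816 and 1.31 CPM in the 14 °C roots and 1.25, 1.12 and 1.08 CPM in unstored roots. It was lower by -4.10 ± 0.59 against both (adjusted p = 0.00012 and 0.0001), and by -5.02 against both without the third 4 °C library, and against 14 °C by -3.47 without the second. HSFA2B comp10270_c1 rested on 4 counts at 4 °C, 36 at 14 °C and 26 in unstored roots, a ratio of 8.06 between 14 °C and 4 °C (95% exact interval 2.89 to 31.2, counting error only), and its call against 14 °C was lost without the second 4 °C library (adjusted p = 0.054). Its call against unstored roots (-2.51 ± 0.86, adjusted p = 0.028) was lost with limma-voom (adjusted p = 0.12) and without any 4 °C library or the first or the third library of unstored roots (adjusted p from 0.053 to 0.092). Between 14 °C and unstored roots comp10271_c2 was not called (0.83 ± 0.37, adjusted p = 0.11), but it was without the second 4 °C library (0.79, adjusted p = 0.023). It was also called with library totals alone (1.07, adjusted p = 0.042), with only the 2 groups compared (0.83, adjusted p = 0.021) and with limma-voom (0.86, adjusted p = 0.027).

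**Figure D4:**
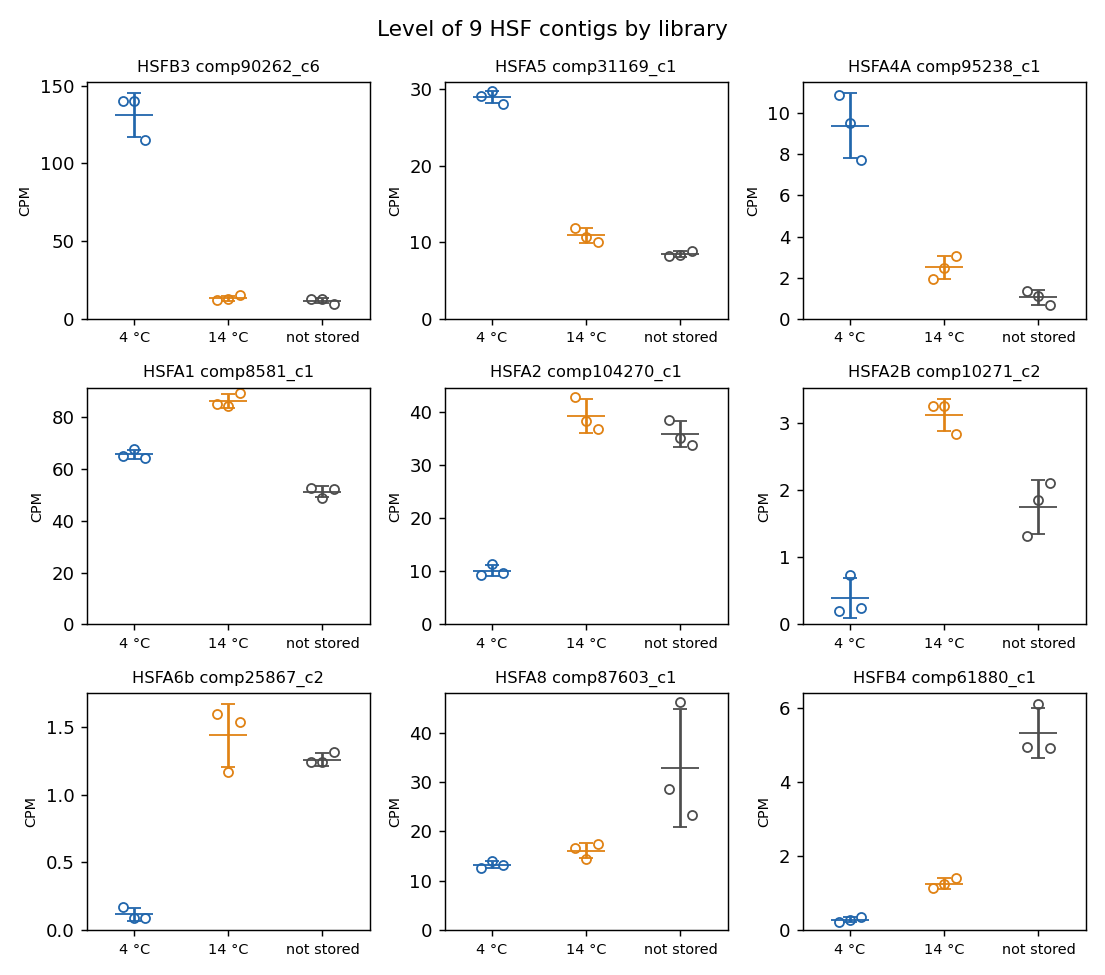
Level in CPM (vertical axis, from 0, each panel with its own scale) of 9 HSF contigs at 4 °C, at 14 °C and in unstored roots. Circles are libraries, long bars the mean and whiskers ± 1 SD (n = 3). HSFB3, HSFA5 and HSFA4A comp95238_c1 are highest at 4 °C, HSFA1 at 14 °C, and HSFA8 and HSFB4 in unstored roots.

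HSFA6b, linked to abscisic acid signalling in Arabidopsis, was lower at 4 °C than in both other groups in all 3 of its contigs. HSFA6b comp25867_c2 had 0.170, 0.0872 and 0.0888 CPM in the 4 °C roots, 1.60, 1.17 and 1.54 CPM in the 14 °C roots and 1.24, 1.24 and 1.32 CPM in unstored roots. The 4 °C libraries were far apart from the rest, and the other 2 groups overlapped. The change was -3.64 ± 0.33 against 14 °C (adjusted p = 2.3e-06) and -3.45 ± 0.33 against unstored roots (adjusted p = 3e-06). HSFA6b comp9903_c2 held 5 counts at 4 °C, 179 at 14 °C and 128 in unstored roots, and was 32.1 times higher at 14 °C than at 4 °C (95% exact interval 13.5 to 99.9). HSFA6b comp71162_c1 held 5, 45 and 44 counts, a ratio of 8.06 (3.21 to 26.0). Without the second 4 °C library the log2 change of comp9903_c2 was -5.54 against 14 °C and -5.15 against unstored roots, where all libraries gave -4.93 and -4.50, and without the third that of comp71162_c1 was -3.58 and -3.62, where all gave -2.93 and -2.97.

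HSFA7A comp49730_c2, of a symbol whose Arabidopsis namesake is induced by heat, had 0.327, 0.511 and 0.546 CPM in the 4 °C roots, 0.997, 0.984 and 1.07 CPM in the 14 °C roots and 1.54, 1.24 and 1.11 CPM in unstored roots. It was lower at 4 °C than at 14 °C (-1.14 ± 0.28, adjusted p = 0.0048) and than in unstored roots (-1.48 ± 0.28, adjusted p = 0.00069). The difference between 14 °C and unstored roots was -0.35 (adjusted p = 0.34). HSFA2E comp97792_c1 was called in no comparison, with 0.179 ± 0.0457 CPM in the 4 °C roots, 0.238 ± 0.0600 CPM in the 14 °C roots and 0.125 ± 0.0330 CPM in unstored roots.

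HSFA3 is a target of the dehydration-responsive factor DREB2A in Arabidopsis. All 4 HSFA3 contigs were higher at 4 °C than in unstored roots, with log2 changes of 1.24 ± 0.22, 1.01 ± 0.33, 1.84 ± 0.35 and 1.18 ± 0.21. Only comp109557_c2 was also higher at 4 °C than at 14 °C. It had 1.06, 1.57 and 1.04 CPM in the 4 °C roots, 0.456, 0.257 and 0.647 CPM in the 14 °C roots and 0.341, 0.336 and 0.348 CPM in unstored roots, and its change against 14 °C was 1.44 ± 0.35 (adjusted p = 0.0046). HSFA3 comp33430_c1 had 2.16, 2.42 and 2.16 CPM in the 4 °C roots, 2.46, 2.15 and 2.02 CPM in the 14 °C roots and 1.13, 1.03 and 0.813 CPM in unstored roots. Here both stores overlapped and both stood above unstored roots, by 1.18 ± 0.21 at 4 °C (adjusted p = 0.00051) and by 1.15 ± 0.21 at 14 °C (adjusted p = 0.0015). HSFA3 comp86349_c1 was also called at 14 °C (0.79 ± 0.22, adjusted p = 0.018), but not without the first 14 °C library (adjusted p = 0.06) or the third library of unstored roots (adjusted p = 0.068). The call of comp79044_c1 at 4 °C (adjusted p = 0.023) was lost without the first or second 4 °C library or the first or the third library of unstored roots (adjusted p from 0.056 to 0.09). At 14 °C it was not called (0.88 ± 0.33, adjusted p = 0.063), but it was without the second library of unstored roots (1.32, adjusted p = 0.01). It was also called there with library totals alone (1.14, adjusted p = 0.017) and with limma-voom (0.95, adjusted p = 0.038).

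HSFA4 factors have been tied to oxidative and salt stress in Arabidopsis. The 8 HSFA4A contigs did not move as a block. At 4 °C against 14 °C 2 were higher and 4 lower, beside 23.8% and 24.0% of all contigs. At 4 °C against unstored roots 1 was higher and 3 lower, beside 26.0% and 26.6% of all. At 14 °C against unstored roots 4 were higher and 1 lower, beside 15.1% and 15.7% of all. The most abundant, comp87334_c1, had 40.7, 39.2 and 39.3 CPM in the 4 °C roots, 28.3, 27.5 and 29.7 CPM in the 14 °C roots and 37.6, 48.9 and 32.4 CPM in unstored roots, so it stood lowest at 14 °C. It was higher at 4 °C than at 14 °C by 0.48 ± 0.14 (adjusted p = 0.015) and lower at 14 °C than in unstored roots by -0.47 ± 0.14 (adjusted p = 0.024). The first of these calls was lost without the second 14 °C library (adjusted p = 0.058) and with library totals alone (adjusted p = 0.053). The second was lost with library totals alone (adjusted p = 0.21), under the replicate block (adjusted p = 0.053) and without the first or second 14 °C library or the second library of unstored roots (adjusted p from 0.074 to 0.091).

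HSFA4A comp95238_c1 had 10.9, 9.54 and 7.73 CPM in the 4 °C roots, 1.96, 2.48 and 3.06 CPM in the 14 °C roots and 1.36, 1.13 and 0.671 CPM in unstored roots. The groups formed 3 separate steps. It rose at 4 °C by 1.91 ± 0.26 against 14 °C (adjusted p = 6.8e-05) and by 3.15 ± 0.27 against unstored roots (adjusted p = 1.4e-06), and at 14 °C by 1.24 ± 0.26 against unstored roots (adjusted p = 0.0042). Its mean TPM was 12.7 ± 1.77 at 4 °C, beside 18.9 ± 1.25 TPM for comp87334_c1. A further 3 HSFA4A contigs, of 1099 to 1806 bases, were highest at 14 °C. HSFA4A comp20040_c7, with 6.97, 6.46 and 6.54 CPM in the 4 °C roots, 13.7, 12.4 and 14.6 CPM in the 14 °C roots and 7.45, 7.01 and 7.54 CPM in unstored roots, was lower at 4 °C than at 14 °C by -1.03 ± 0.13 (adjusted p = 3.5e-05) and higher at 14 °C than in unstored roots by 0.89 ± 0.13 (adjusted p = 0.00032). The other 2, comp28613_c1 and comp50653_c1, were lower at 4 °C than at 14 °C by -1.11 ± 0.16 and -1.43 ± 0.19 (adjusted p = 0.00014 and 5.1e-05). Neither comp28614_c5 nor comp43623_c2 was called in any comparison, with means of 3.24 and 3.21 CPM at 4 °C, though comp28614_c5 was called higher at 14 °C than in unstored roots with library totals alone (0.66, adjusted p = 0.026). The shortest contig, comp3305_c2 of 274 bases, was lower at 4 °C by -2.35 ± 0.55 against 14 °C (adjusted p = 0.0039) and by -1.70 ± 0.56 against unstored roots (adjusted p = 0.024), and the second call was lost with limma-voom (adjusted p = 0.065) and without any 4 °C library or the second library of unstored roots (adjusted p from 0.057 to 0.11).

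HSFA4C, known in Arabidopsis as RHA1 for its part in root growth direction, was lower at 14 °C than in both other groups. Its contig comp95867_c1 had 5.89, 5.73 and 5.0 CPM in the 4 °C roots, 1.98, 2.04 and 2.16 CPM in the 14 °C roots and 3.54, 5.46 and 4.52 CPM in unstored roots. It was higher at 4 °C than at 14 °C by 1.43 ± 0.19 (adjusted p = 5.8e-05), and lower at 14 °C than in unstored roots by -1.13 ± 0.19 (adjusted p = 0.00087). HSFA4B comp64711_c1 had 16.7, 13.3 and 15.0 CPM in the 4 °C roots, 10.4, 10.8 and 12.7 CPM in the 14 °C roots and 23.6, 31.4 and 22.9 CPM in unstored roots. Both stores were below unstored roots, by -0.79 ± 0.15 at 4 °C (adjusted p = 0.001) and -1.20 ± 0.16 at 14 °C (adjusted p = 0.00016). Its call at 4 °C against 14 °C (0.41 ± 0.15, adjusted p = 0.046) was lost under 10 alternatives, among them without the first or the third 4 °C, the first or second 14 °C or the first library of unstored roots (adjusted p from 0.056 to 0.16). HSFA4D, whose rice namesake is the lesion gene Spl7, was lower at 14 °C than in unstored roots in both its contigs (-0.98 ± 0.20 for comp64814_c2, adjusted p = 0.003, and -2.03 ± 0.47 for comp47575_c2, adjusted p = 0.0069). Its call at 4 °C against unstored roots in comp64814_c2 (-0.64 ± 0.20, adjusted p = 0.016) was lost without the first 4 °C library (adjusted p = 0.055). That of comp47575_c2 at 4 °C against 14 °C (1.47 ± 0.48, adjusted p = 0.023) was lost without the third 4 °C or the first or the third 14 °C library (adjusted p from 0.057 to 0.094).

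HSFA5, which in tomato and Arabidopsis binds HSFA4 and represses its activity, rose at 4 °C. HSFA5 comp31169_c1 had 29.1, 29.8 and 28.1 CPM in the 4 °C roots, 11.9, 10.7 and 10.0 CPM in the 14 °C roots and 8.21, 8.33 and 8.88 CPM in unstored roots. The libraries at 4 °C stood well above all others. The rise was 1.41 ± 0.12 against 14 °C (adjusted p = 1.2e-06) and 1.77 ± 0.12 against unstored roots (adjusted p = 1.6e-07). HSFA5 comp38327_c2 had 4.70, 5.65 and 3.93 CPM in the 4 °C roots, 1.84, 1.23 and 1.64 CPM in the 14 °C roots and 1.79, 2.2 and 1.25 CPM in unstored roots, and rose by 1.60 ± 0.25 and 1.45 ± 0.25 (adjusted p = 0.00023 and 0.0004). Between 14 °C and unstored roots comp31169_c1 was called higher (0.36 ± 0.12, adjusted p = 0.034), a call lost under 11 alternatives, 7 of them the omission of 1 library, either the first or second at 4 °C, the first or second at 14 °C, or any of unstored roots (adjusted p from 0.055 to 0.13). The shortest contig, comp93065_c1, was called in no comparison.

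HSFA8, redox-sensitive in Arabidopsis, was lower in both stores. Its contig comp87603_c1 had 12.6, 14.0 and 13.1 CPM in the 4 °C roots, 16.6, 14.4 and 17.5 CPM in the 14 °C roots and 28.6, 46.3 and 23.4 CPM in unstored roots. Unstored roots stood above both stores and were the most spread, with the second library far above the others. The change was -1.31 ± 0.21 at 4 °C (adjusted p = 0.00027) and -1.02 ± 0.21 at 14 °C (adjusted p = 0.0036). Between 4 °C and 14 °C it was -0.29 ± 0.21 (adjusted p = 0.29), though called with only the 2 groups compared (-0.32, adjusted p = 0.046). The class C contig, HSFC1 comp48090_c1, was likewise lower in both stores, with 4.94, 4.92 and 3.5 CPM in the 4 °C roots, 3.40, 4.34 and 4.16 CPM in the 14 °C roots and 6.51, 7.73 and 8.32 CPM in unstored roots. It changed by -0.76 ± 0.18 at 4 °C (adjusted p = 0.0044) and by -0.92 ± 0.19 at 14 °C (adjusted p = 0.0029).

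In class B, HSFB3 rose at 4 °C to the highest level of any member. Its contig of 2057 bases, comp90262_c6, had 140, 140 and 115 CPM in the 4 °C roots, 11.9, 12.9 and 15.1 CPM in the 14 °C roots and 12.7, 12.7 and 9.85 CPM in unstored roots. The 4 °C libraries lay far above all others, and the other 2 groups overlapped. HSFB3 was 9.88 times higher at 4 °C than at 14 °C (log2 fold change 3.30 ± 0.15, adjusted p = 1.2e-08) and 11.2 times higher than in unstored roots (3.48 ± 0.16, adjusted p = 6.7e-09). Between 14 °C and unstored roots the change was 0.18 ± 0.14 (adjusted p = 0.38), and 0.43 with library totals alone (adjusted p = 0.018). In TPM it was 65.3 ± 3.76 in the 4 °C roots, 7.23 ± 0.556 at 14 °C and 4.77 ± 0.245 in unstored roots.

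HSFB4, known in Arabidopsis as SCHIZORIZA for its part in asymmetric division in the root, fell in store and fell furthest at 4 °C. Its 5 contigs summed to 0.297 ± 0.0731 CPM in the 4 °C roots, 1.92 ± 0.308 CPM in the 14 °C roots and 7.41 ± 0.490 CPM in unstored roots. The longest, comp61880_c1, had 0.199, 0.274 and 0.343 CPM in the 4 °C roots, 1.12, 1.23 and 1.40 CPM in the 14 °C roots and 4.93, 6.09 and 4.90 CPM in unstored roots. The 3 groups were separate. The change was -2.19 ± 0.25 between 4 °C and 14 °C (adjusted p = 1.6e-05), -4.27 ± 0.25 between 4 °C and unstored roots (adjusted p = 5.8e-08) and -2.08 ± 0.22 between 14 °C and unstored roots (adjusted p = 3.6e-05).

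The shorter HSFB4 contigs had few or no counts at 4 °C. HSFB4 comp44909_c1 held 2 counts at 4 °C, both in the second library, 91 at 14 °C and 285 in unstored roots. Scaled by library size, it was 40.7 times higher at 14 °C than at 4 °C (95% exact interval 11.0 to 341) and 133 times higher in unstored roots (36.5 to 1100). Without the second 4 °C library the remaining ones had no count, and the fitted log2 changes of this contig, which are then no bound, were -7.83 and -9.58, where all libraries gave -5.12 and -6.82. Its call at 14 °C against unstored roots (-1.71 ± 0.44, adjusted p = 0.012) was lost without the second 14 °C library (adjusted p = 0.058). HSFB4 comp69515_c2 had no count at 4 °C, 27 at 14 °C and 86 in unstored roots, and was at least 2.71-fold lower at 4 °C than at 14 °C and at least 9.03-fold lower than in unstored roots, taking 3 counts per library as the limit that a count of 0 allows. Its call at 14 °C against unstored roots (-1.73 ± 0.59, adjusted p = 0.049) was lost under 10 alternatives, among them without the first 4 °C library, any 14 °C library or the first or the third library of unstored roots (adjusted p from 0.051 to 0.17). HSFB4 comp40434_c2 held 4, 34 and 114 counts, and its call at 4 °C against 14 °C (-2.92 ± 1.05, adjusted p = 0.037) was lost under 5 alternatives, with -1.56 (adjusted p = 0.23) without the third 14 °C library, -2.81 (adjusted p = 0.098) without the first 4 °C library and -2.35 (adjusted p = 0.11) without the third. It was -4.09 without the second 4 °C library. At 14 °C against unstored roots this contig was not called (-1.68 ± 0.76, adjusted p = 0.11), but it was without the third 14 °C library (-3.04, adjusted p = 0.015) and with limma-voom (-2.1, adjusted p = 0.033). The untested comp50885_c1 had no count at 4 °C, 16 at 14 °C and 34 in unstored roots.

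HSFB2B is a repressor of heat-inducible HSF genes in Arabidopsis. Its 10 contigs split by length. The 2 longest, comp102209_c1 of 1626 bases and comp12721_c1 of 1584 bases, held most of the HSFB2B signal and were slightly lower at 4 °C. HSFB2B comp12721_c1 had 26.5, 28.2 and 29.8 CPM in the 4 °C roots, 32.8, 36.6 and 38.1 CPM in the 14 °C roots and 37.0, 41.7 and 38.0 CPM in unstored roots, and was lower at 4 °C than in unstored roots by -0.47 ± 0.11 (adjusted p = 0.0038). Its call against 14 °C (-0.35 ± 0.11, adjusted p = 0.022) was lost without the first or second 4 °C or the second or the third 14 °C library (adjusted p from 0.07 to 0.097). HSFB2B comp102209_c1 changed by -0.34 and -0.33, and both calls were lost without the second 4 °C library (adjusted p = 0.17 and 0.11) and under the replicate block (adjusted p = 0.055 for both); the first was also lost without the third 14 °C library (adjusted p = 0.086), and the second also without the third 4 °C library or the first or second library of unstored roots.

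Of the 8 shorter HSFB2B contigs, 7 were higher at 4 °C and 6 higher at 14 °C than in unstored roots, beside 26.0% and 15.1% of all contigs. HSFB2B comp89904_c1 had 5.03, 5.32 and 4.30 CPM in the 4 °C roots, 3.90, 4.84 and 3.84 CPM in the 14 °C roots and 1.26, 1.88 and 1.63 CPM in unstored roots. The stores overlapped and both lay above unstored roots, by 1.62 ± 0.20 at 4 °C (adjusted p = 2.9e-05) and 1.40 ± 0.20 at 14 °C (adjusted p = 0.00032). HSFB2B comp90969_c1 had 3.35, 3.57 and 3.35 CPM in the 4 °C roots, 0.859, 1.01 and 1.62 CPM in the 14 °C roots and 0.376, 0.768 and 0.452 CPM in unstored roots. It stood out at 4 °C, by 1.56 ± 0.30 against 14 °C (adjusted p = 0.001) and 2.68 ± 0.32 against unstored roots (adjusted p = 2e-05). Its rise at 14 °C (1.12 ± 0.31, adjusted p = 0.018) was lost without the third 14 °C library or the first or the third library of unstored roots (adjusted p from 0.059 to 0.087). HSFB2B comp85963_c1 was higher than in unstored roots by 1.82 ± 0.36 in both stores (adjusted p = 0.001 at 4 °C and 0.0025 at 14 °C), and comp58170_c3 was called in no comparison, with 0.413 ± 0.0258 CPM at 4 °C. Other calls among these contigs also depended on single libraries. That of comp7761_c6 at 4 °C (1.38 ± 0.50, adjusted p = 0.035) was lost without the second or the third 4 °C, the first 14 °C or the first or second library of unstored roots (adjusted p from 0.05 to 0.11). At 14 °C comp100351_c5 (0.85 ± 0.28, adjusted p = 0.035) lost its call without the second 4 °C, the third 14 °C or any library of unstored roots (adjusted p from 0.058 to 0.16), and comp48870_c2 (1.05 ± 0.29, adjusted p = 0.019) without the second 14 °C or the first library of unstored roots (adjusted p = 0.064 and 0.071).

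HSFB2B comp91581_c1 stood at 0.738, 2.05 and 0.127 CPM in the 4 °C roots, while every other library had none. It was at least 27.4-fold higher at 4 °C than at 14 °C and at least 26.5-fold higher than in unstored roots, and at least 12.2-fold and 11.8-fold without the second 4 °C library, which held most of its counts. HSFB2A comp105854_c1, the other HSFB2 symbol with a called contig, had 5.69, 4.87 and 5.27 CPM in the 4 °C roots, 5.03, 5.12 and 4.97 CPM in the 14 °C roots and 2.41, 2.74 and 2.12 CPM in unstored roots. It was about equally high in both stores, which overlapped, and rose by 1.12 ± 0.16 at 4 °C (adjusted p = 9.9e-05) and 1.06 ± 0.16 at 14 °C (adjusted p = 0.0005). Neither tested HSFB2C contig was called, although all 3 libraries of each store lay above unstored roots in both. HSFB2C comp7760_c4 had 0.235 ± 0.0484 CPM in the 4 °C roots, 0.273 ± 0.127 CPM in the 14 °C roots and 0.109 ± 0.0382 CPM in unstored roots (adjusted p = 0.09 at 4 °C and 0.069 at 14 °C). At 14 °C it was called without the second 14 °C library (1.62, adjusted p = 0.044) and with library totals alone (1.55, adjusted p = 0.029). HSFB2C comp28864_c1 was 1.54 ± 0.74 higher at 4 °C (adjusted p = 0.1) and 1.82 ± 0.74 at 14 °C (adjusted p = 0.081), and was called in both without the third library of unstored roots (2.58 and 2.85, adjusted p = 0.018 and 0.017). With limma-voom it was also called in both (2.55 and 2.85, adjusted p = 0.03 and 0.025).

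Each contig has a pattern of calls over the 3 comparisons, and the share of all 94802 tested contigs with the same pattern is given beside each count. Lower at 4 °C than in both other groups with no call between those was the pattern of 14 (27.5%) of the 51 tested contigs, beside 11.7% of all, and it was found in HSFA2, HSFA2B, HSFA4A, HSFA6b, HSFA7A, HSFB2B and HSFB4. The reverse, higher at 4 °C than in both others with no call between them, was found in 4 contigs (7.84%), 1 each of HSFA3, HSFA5, HSFB2B and HSFB3, beside 12.2% of all. Higher in both stores with no call between the stores was found in 8 contigs (15.7%) of HSFA3, HSFB2A and HSFB2B, beside 4.65% of all. Lower in both stores with no call between them was found in 3 contigs (5.88%), of HSFA4D, HSFA8 and HSFC1, beside 4.92% of all. A further 7 contigs (13.7%) were called nowhere, beside 32.5% of all: HSFA2E, 2 of HSFA4A, and 1 of HSFA5, 1 of HSFB2B and 2 of HSFB2C. Calls in all 3 comparisons with steps upward to 4 °C were found in 3 contigs, of HSFA4A, HSFA5 and HSFB2B (2.99% of all contigs), and with steps downward to 4 °C in 3 of HSFB4 (3.51% of all). Lowest at 14 °C with no call between 4 °C and unstored roots was found in 3 contigs, of HSFA4A, HSFA4C and HSFA4D (3.22% of all), and highest at 14 °C with no such call in 1 of HSFA4A (3.26% of all). The other patterns were those of 2 HSFA4A contigs, lower at 4 °C and higher at 14 °C than in unstored roots (1.85% of all), HSFA1, highest at 14 °C and lowest in unstored roots (0.541%), HSFA4B, lowest at 14 °C and highest in unstored roots (0.931%), and 1 HSFA3 contig called at 4 °C against unstored roots alone (3.5%).

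The heat shock proteins and other genes around the HSFs were counted from lists by symbol or description, 211 contigs in all, of which 204 were tested. At 4 °C against 14 °C 106 (52.0%) were higher and 33 (16.2%) lower, beside 23.8% and 24.0% of all contigs, with a median of 0.50 against -0.08 over all contigs. At 4 °C against unstored roots 111 (54.4%) were higher and 35 (17.2%) lower, beside 26.0% and 26.6% of all, with a median of 0.69 against -0.02. At 14 °C against unstored roots 57 (27.9%) were higher and 38 (18.6%) lower, beside 15.1% and 15.7% of all, with a median of -0.01 against 0.02. The chaperone HSP70 counted 43 higher and 10 lower of 75 at 4 °C against 14 °C, HSP90 21 higher and 2 lower of 36, and the small heat shock proteins 25 higher and 9 lower of 44. At 4 °C against unstored roots the counts were 40 higher and 9 lower, 22 higher and 3 lower, and 20 higher and 14 lower in the same order. By their descriptions the HSP90 list also took in 1 contig with the symbol rad50 and 1 with pakF, and the HSP70 list 1 with TTL1, none of them called at 4 °C against 14 °C, while TTL1 was lower at 4 °C than in unstored roots. The summed level of the small heat shock proteins was 325 ± 49.8 CPM in the 4 °C roots, 442 ± 81.6 CPM in the 14 °C roots and 338 ± 27.2 CPM in unstored roots. In the same order HSP70 summed to 4480 ± 303, 4100 ± 265 and 4130 ± 105 CPM, and HSP90 to 1570 ± 122, 1380 ± 68.1 and 1300 ± 38.4 CPM. In TPM the sums were 3740 ± 108, 3350 ± 231 and 2440 ± 330 for HSP70, and 1510 ± 30.3, 1240 ± 44.6 and 769 ± 66.0 for HSP90. The small heat shock proteins summed to 478 ± 39.5, 671 ± 91.1 and 395 ± 20.3 TPM. Their place at 4 °C beside unstored roots thus depended on the scale. The HSP70 contig with the highest mean TPM, MED37C comp11354_c5, had 971, 957 and 973 CPM in the 4 °C roots, 1600, 1400 and 1630 CPM in the 14 °C roots and 769, 877 and 1040 CPM in unstored roots, and was lower at 4 °C than at 14 °C by -0.67 ± 0.12 (adjusted p = 0.00076). The HSP90 contig with the highest mean TPM, HSC80 comp37928_c9, was called in no comparison (0.10 ± 0.12 at 4 °C against 14 °C, adjusted p = 0.53).

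The most abundant small heat shock protein contig, HSP18.2 comp54629_c1, had 55.9, 54.8 and 44.7 CPM in the 4 °C roots, 168, 156 and 234 CPM in the 14 °C roots and 110, 129 and 113 CPM in unstored roots. It was lowest at 4 °C, by -1.84 ± 0.16 against 14 °C (adjusted p = 2.1e-06) and -1.18 ± 0.16 against unstored roots (adjusted p = 6.4e-05). The list for HSP101/ClpB, the chaperone that takes aggregates apart, counted 2 higher and 7 lower of 14 at 4 °C against 14 °C (23.8% and 24.0% of all contigs), and 7 higher and 3 lower at 4 °C against unstored roots (26.0% and 26.6% of all). By symbol it held 3 CLPB1, 1 CLPB2, 6 CLPB3, 1 clpB, 2 clpB2 and 1 clpE contigs. The 7 lower ones against 14 °C were 3 of CLPB1 and 1 each of CLPB3, clpB, clpB2 and clpE. All 3 CLPB1 contigs were lower at 4 °C than at 14 °C and higher than in unstored roots. The list's contig with the highest mean TPM, CLPB3 comp107146_c1, changed by 0.16 ± 0.11 at 4 °C against 14 °C (adjusted p = 0.27). DREB2A comp51161_c2, upstream of HSFA3 in Arabidopsis, had 7.27, 7.15 and 6.13 CPM in the 4 °C roots, 16.9, 16.5 and 15.4 CPM in the 14 °C roots and 32.1, 50.4 and 26.1 CPM in unstored roots, and was lower at 4 °C than in unstored roots by -2.40 ± 0.21 (adjusted p = 1.8e-06). Of the 3 other DREB2A contigs, comp33619_c1 was lower too (-2.11 ± 0.18, adjusted p = 1.1e-06), while comp79274_c1 and comp97378_c1, with means of 32.9 and 46.9 CPM at 4 °C, were higher than in unstored roots by 0.74 ± 0.13 and 0.57 ± 0.11 (adjusted p = 0.00056 and 0.0013). The DREB2 list as a whole counted 4 higher and 3 lower of 8 at 4 °C against 14 °C, and 4 higher and 2 lower at 4 °C against unstored roots.

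MBF1C, a coactivator that rises with heat in Arabidopsis, was highest at 4 °C. Its contig comp100222_c1 had 35.1, 31.9 and 30.5 CPM in the 4 °C roots, 5.09, 6.63 and 8.11 CPM in the 14 °C roots and 10.8, 13.9 and 10.8 CPM in unstored roots, a change of 2.30 ± 0.18 against 14 °C (adjusted p = 6.9e-07). APX2 and GOLS2 are both targets of HSFA2 in Arabidopsis. APX2 comp101433_c4, an ascorbate peroxidase, had 2.03 ± 0.814 CPM in the 4 °C roots, 0.240 ± 0.0444 CPM in the 14 °C roots and 0.538 ± 0.188 CPM in unstored roots (3.07 ± 0.38 against 14 °C, adjusted p = 3.4e-05). The 2 other APX2 contigs were not called against 14 °C, with -0.90 for comp17280_c1 (adjusted p = 0.11) and -0.43 for comp30576_c3 (adjusted p = 0.43). GOLS2 comp52887_c1, a galactinol synthase, had 1.04 ± 0.380 CPM in the 4 °C roots, 4.53 ± 0.655 CPM in the 14 °C roots and 6.41 ± 1.45 CPM in unstored roots (-2.12 ± 0.27 against 14 °C, adjusted p = 3.9e-05). Of the 3 galactinol synthase contigs 0 were higher and 2 lower at 4 °C against 14 °C, beside 23.8% and 24.0% of all contigs.

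STI comp107256_c2, the organiser that links HSP70 to HSP90, had 228 ± 3.41 CPM in the 4 °C roots, 149 ± 7.71 CPM in the 14 °C roots and 118 ± 6.12 CPM in unstored roots. The list searched for this organiser held 15 contigs, 6 higher and 0 lower at 4 °C against 14 °C, beside 23.8% and 24.0% of all contigs. It also took in other proteins, and of those 6 contigs 1 is STI, 1 STI1, 1 OM64, 1 TOC64 and 2 HOP2, the last annotated with chiasma assembly. The single FES1 contig, comp22898_c2, for a nucleotide exchange factor of HSP70, had 103 ± 4.86, 56.4 ± 1.92 and 36.5 ± 3.75 CPM in the same order (0.87 ± 0.11 against 14 °C, adjusted p = 4.5e-05). The 1 FKBP65 contig was not tested. FKBP62 is an immunophilin that binds HSP90 and HSFA2 in Arabidopsis. Of its 4 tested contigs 2 were higher and none lower at 4 °C against 14 °C, beside the same 23.8% and 24.0% of all. The named one, FKBP62 comp92093_c1, changed by -0.24 ± 0.11 (adjusted p = 0.078).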

How the data were processed

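The deposited table holds 110110 contigs in 9 libraries. The estimated counts, which are not whole, the RPKM values and the TPM values were made by the authors, per the file headers; the counting tool and the origin of the symbols were not stated there. Per the submitters' processing notes, with no role stated, the tools were cutadapt 1.9, HISAT2 2.0.4, StringTie 1.3.4d, DESeq2 and edgeR. RPKM was not used. The labels' extraction text describes another tissue, so the RNA extraction of the roots is not given here. Counts were rounded, filtered with filterByExpr and scaled by TMM, and CPM are counts per TMM-scaled library size. One fit of the 3 groups with edgeR 4.0.16 (R 4.3.3, robust quasi-likelihood test, Benjamini-Hochberg over 94802 contigs) gave each p, and a contig was called under 0.05. The code was tested on simulated data. Alternatives used DESeq2 1.42.0 size factors and Wald test, limma 3.58.1 voom, other scalings and filters, a replicate block, 2 groups alone, a 2-fold minimum and the omission of each library. Count ratios have exact 95% intervals, and these and the limit of 3 counts per library (0.0318 to 0.0426 TMM-scaled CPM) cover counting error only.

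The contigs described, the gene lists and the tests were chosen with earlier results of these data known. Named were the 3 contigs per class with the highest mean TPM, the 4 largest rises and falls per comparison among called contigs whose libraries do not overlap and whose higher mean reaches 1 CPM, the contig of each symbol with the highest mean TPM, and the contig of each pathway list with the highest mean TPM; other HSF contigs are named to account for every member, after their values were seen. Symbols come from the table, and 0 member symbols matched the reference gene table. Lists for HSF-binding protein, BAG6 and HSA32 found no contig.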

Additional observations from a re-analysis of the deposited data

Results flagged for a closer look

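For 2 HSFA4A contigs the difference from unstored roots had opposite signs in the 2 stores. HSFA4A comp28613_c1 had 7.81, 5.75 and 6.31 CPM in the 4 °C roots, 14.3, 13.1 and 15.5 CPM in the 14 °C roots and 9.99, 10.2 and 7.72 CPM in unstored roots. It was lower than in unstored roots at 4 °C (-0.49 ± 0.16, adjusted p = 0.023) and higher at 14 °C (0.62 ± 0.16, adjusted p = 0.012). The difference between the stores, tested directly with edgeR, was -1.11 (adjusted p = 0.00014). The libraries at 4 °C and of unstored roots overlapped, and the call at 4 °C was lost with library totals alone and without the second or the third 4 °C library or the first or second library of unstored roots (adjusted p from 0.056 to 0.091). The call at 14 °C was lost without the third library of unstored roots (0.44, adjusted p = 0.057).

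HSFA4A comp50653_c1 had 3.15, 2.83 and 2.79 CPM in the 4 °C roots, 7.98, 7.82 and 7.78 CPM in the 14 °C roots and 4.66, 5.45 and 3.36 CPM in unstored roots. It was lower than in unstored roots at 4 °C (-0.62 ± 0.18, adjusted p = 0.014), a call lost without their second library (-0.48, adjusted p = 0.059), and higher at 14 °C (0.81 ± 0.18, adjusted p = 0.0057). The difference between the stores was -1.43 (adjusted p = 5.1e-05).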

How the results depend on the processing

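With a change of at least 2-fold asked for, 8 of 51 HSF contigs were higher at 14 °C than in unstored roots, beside 9.15% of all contigs. Of the 204 tested pathway contigs 19 were lower at 4 °C than at 14 °C, beside 18.2% of all. At 14 °C against unstored roots 25 pathway contigs were higher and 22 lower, beside 9.15% and 9.95% of all. With 1 library left out, HSF counts of higher and lower contigs ranged from 9 to 11 and 18 to 21 at 4 °C against 14 °C, from 15 to 17 and 19 to 23 at 4 °C against unstored roots, and from 11 to 15 and 7 to 10 at 14 °C against unstored roots. The pathway counts ranged from 92 to 108 and 30 to 35, from 96 to 111 and 28 to 36, and from 48 to 55 and 27 to 49. Over all 98024 to 98746 contigs then tested, the counts ranged from 19628 to 24434 and 18591 to 23831 at 4 °C against 14 °C. They ranged from 21442 to 25065 and 22653 to 25440 at 4 °C against unstored roots, and from 9814 to 14888 and 10771 to 17768 at 14 °C. Of 2698 single values compared outside the 2-fold rule 2573 stayed on the same side of the threshold, 106 lost a call, 19 gained one and 0 called values changed sign. Same-numbered libraries did not deviate together (9 pairs, r from -0.424 to 0.259), and with the replicate block HSF counts were 10 and 19, 16 and 22, and 14 and 8, and pathway counts 99 and 34, 106 and 30, and 51 and 32, with 8 HSF calls lost. Over all 94802 contigs the block gave 20996 and 20906, 23068 and 23352, and 11898 and 12663. In TPM in place of CPM the log2 ratio of class A was 0.01 in place of -0.26 at 4 °C against unstored roots and 0.49 in place of 0.06 at 14 °C, and that of class B at 14 °C was 0.50 in place of 0.02. Contigs with under 10 counts in a group are limited by depth.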

Other observations

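A further 13 contigs carry the HSF symbols HSF30, HSF8 and HSF24, names used in tomato for heat stress transcription factors, and are outside the HSFA, HSFB and HSFC names. These symbols state no class letter, and the contigs were not assigned to a class here. The class counts, sums and shares above leave them out and so may not cover all HSF transcripts of a class. At 4 °C against 14 °C 4 were higher and 7 lower, beside 23.8% and 24.0% of all contigs tested. At 4 °C against unstored roots 9 were higher and 3 lower, beside 26.0% and 26.6% of all, and at 14 °C against unstored roots 8 were higher and 1 lower, beside 15.1% and 15.7% of all. HSF30 comp39667_c5 had 1.99, 2.15 and 1.99 CPM in the 4 °C roots, 27.6, 30.2 and 28.4 CPM in the 14 °C roots and 21.4, 23.5 and 24.0 CPM in unstored roots. It was lower at 4 °C by -3.81 ± 0.13 against 14 °C (edgeR, adjusted p = 1.4e-09) and by -3.49 ± 0.13 against unstored roots (adjusted p = 1.7e-09). HSF30 comp8022_c1 was lower by -3.81 ± 0.14 and -3.0 ± 0.13 (adjusted p = 2.3e-09 and 6.6e-09). All 8 HSF30 contigs were higher at 14 °C than in unstored roots, comp39667_c5 by 0.32, comp8022_c1 by 0.81 and the other 6 by 1.60 to 2.09. Of those 6, 5 were lower at 4 °C than at 14 °C, and 5 were higher at 4 °C than in unstored roots, by 0.64 to 1.48, while comp16240_c4 was not called there (0.77 ± 0.40, adjusted p = 0.13).

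HSF24 comp7269_c1 had 203, 200 and 166 CPM in the 4 °C roots, 125, 124 and 152 CPM in the 14 °C roots and 132, 134 and 107 CPM in unstored roots, and was higher at 4 °C by 0.50 ± 0.13 against 14 °C (adjusted p = 0.0084) and by 0.61 ± 0.13 against unstored roots (adjusted p = 0.0024). HSF24 comp59331_c1 was higher by 1.25 ± 0.19 and 1.15 ± 0.19 (adjusted p = 0.00019 and 0.0003). HSF8 comp109941_c3 was higher at 4 °C by 1.22 ± 0.21 against 14 °C and by 1.13 ± 0.21 against unstored roots (adjusted p = 0.00053 and 0.00079). For comp90587_c3 these changes were 0.58 ± 0.13 and 0.36 ± 0.13 (adjusted p = 0.0027 and 0.035). HSF8 comp68179_c1 was not called against 14 °C. It was lower than in unstored roots by -0.91 ± 0.30 at 4 °C and -1.26 ± 0.30 at 14 °C (adjusted p = 0.023 and 0.0086). These contigs were named after their values were seen.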
